A study of Danio rerio with 15 samples.

Results

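Brains of adult female and male zebrafish (Danio rerio) were compared after both sexes had been kept for 56 days in water with 40 µg/L dibromoacetonitrile (DBAN). The comparison takes all genes of 6 of the 15 libraries of the series, 3 of females and 3 of males, which the labels put in these groups by sex and dose. DBAN is a brominated by-product that forms when water containing bromide is disinfected with chlorine. Both groups carried the exposure, so the comparison sets females against males under exposure. Female and male fish kept for the same time at 0 µg/L, 3 libraries of each sex, give the sex difference without DBAN. Poly(A) RNA of brain tissue was sequenced, and strain, age in months and the number of fish per library are not given in the sources used here. Nothing in the labels says that the 3 libraries of a group came from separate fish, so a p-value here measures library-to-library spread, which may be technical. Values below are CPM, that is, counts scaled to library size.

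The adult zebrafish brain makes its own oestrogen. Its radial glial cells, which line the ventricles and keep dividing in adults, express the brain form of aromatase, the enzyme that turns androgens into oestrogens, and peptides of the hypothalamus such as vasotocin and gonadotropin-releasing hormone act in reproduction and social behaviour. Immediate early genes, among them the Fos, Jun and Egr transcription factor genes, are transcribed within minutes when neurons fire or cells are stressed, and need no new protein for it. Laboratory zebrafish have no single known sex chromosome, and in wild strains sex is linked to chromosome 4.

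Total counts at 40 µg/L overlapped, with 33198859 to 49388334 for females and 31576124 to 48621981 for males. Complexity was lower in the male libraries by the counts of rare genes. Where a gene was at 0 in 10 or more of the 14 remaining libraries it was called rare, and the median count of such rare genes was 28, 8 and 35 in female replicates 1, 2 and 3 and 39, 40.5 and 132 in the males, so that every male library lay above every female one (exact permutation test, two-sided p = 0.1, the smallest that 3 against 3 allows). Genes at a count of 0 numbered 2095 to 3218 in the females and 3123 to 5172 in the males, with overlap (exact permutation test, two-sided p = 0.2). A level was read as measurable above a floor of 3 times the rare-gene median, which was 0.728 to 2.41 CPM in the females and 2.69 to 11.9 CPM in the males. Rank correlations across genes were 0.934 to 0.945 between the female libraries, 0.885 to 0.913 between the male ones and 0.889 to 0.931 across the sexes. All 6 libraries held neuronal and glial transcripts: snap25a, a synaptic membrane fusion gene, lay at 1980 to 3100 CPM, the neuronal RNA-binding gene elavl4 at 1470 to 2230 CPM and fabp7a, a gene of radial glia, at 417 to 730 CPM. In the controls depth coincided with sex, with 18365050 to 22630829 counts in the females and 35666401 to 42122528 in the males, and its part in the sex difference of the controls cannot be told apart from that of sex.

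Few genes passed the test between female and male brains at 40 µg/L. Of 11865 genes tested 2 passed an adjusted p of 0.05 (0.0169%; edgeR quasi-likelihood test with Benjamini-Hochberg adjustment), znf143a and socs3a, and both were higher in males. znf143a encodes a zinc finger transcription factor that binds promoters (chromosome 7, 67220374 to 67252086, genome build not given in the sources used here). Its transcripts were at 57.9, 45.3 and 68.4 CPM in female replicates 1, 2 and 3 and at 314, 262 and 276 CPM in the males. Every male library thus stood above every female one, by 4.97-fold between the means of 284 ± 27.2 and 57.2 ± 11.5 CPM (SD, n = 3 each; log2 fold change, female minus male, -2.32 ± 0.22 SE, adjusted p = 0.0411, edgeR). In the controls the same gene was at 185, 73.2 and 51.7 CPM in females and 86.3, 39.2 and 34.2 CPM in males, where the sexes overlapped.

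socs3a encodes a suppressor of cytokine signalling, which is induced by STAT3 and shuts the receptor's kinases off again (chromosome 3, 57423137 to 57425959). It was at 16.4, 27.1 and 19.7 CPM in females and at 134, 125 and 107 CPM in males at 40 µg/L, a 5.81-fold difference of the means without overlap (log2 -2.55 ± 0.27 SE, adjusted p = 0.0465, edgeR). All 6 control libraries lay low, at 13.0, 16.6 and 7.62 CPM in females and 4.68, 17.7 and 18.2 CPM in males. Its paralogue socs3b, also without overlap, was at 19.0, 17.4 and 21.2 CPM in females and 24.6, 30.4 and 24.5 CPM in males (log2 -0.48, unadjusted p = 0.149). Neither znf143a nor socs3a passed once any 1 of the 6 libraries was left out, with an adjusted p between 0.0588 and 0.25, while the log2 fold change stayed between -2.77 and -2.18. DESeq2, run on the same counts, called 70 genes, 36 higher in females and 34 higher in males, the former 2 among them, and 21 of the 70 had a sex in which all libraries were at 0.

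**Figure D1:**
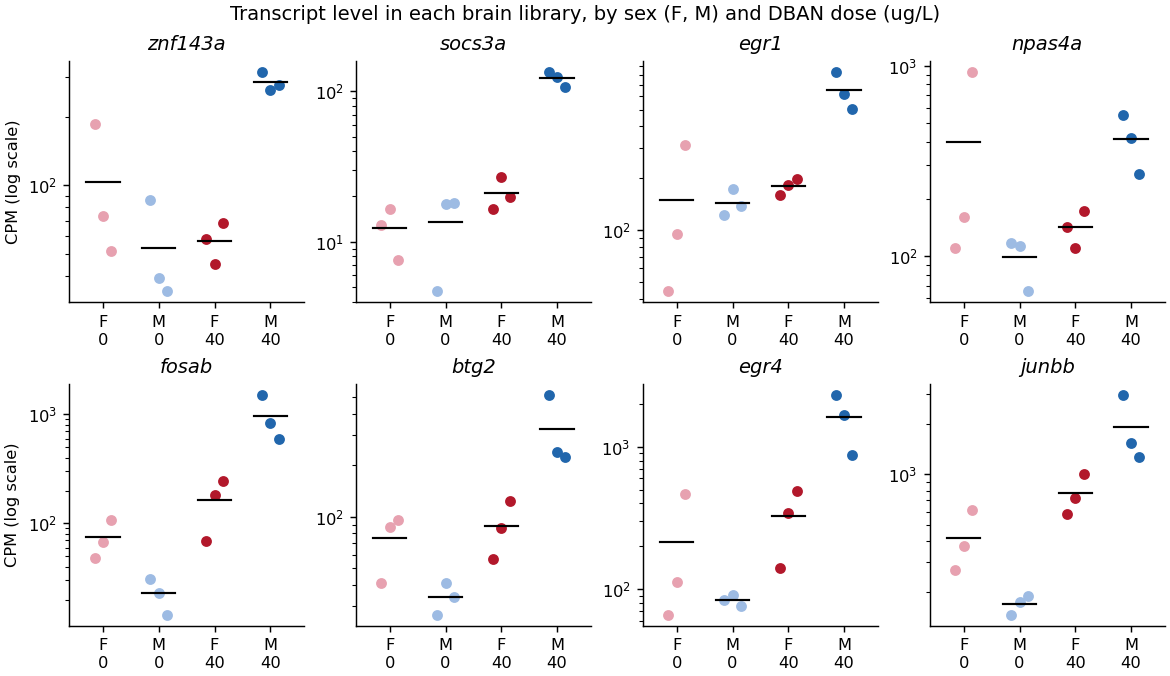
CPM (log scale) of 8 genes in each library of females (F) and males (M) at 0 and 40 µg/L DBAN; points are libraries and bars the mean of 3. The males at 40 µg/L lie above the females at 40 µg/L at each of the 8 genes, and above all control libraries at each except npas4a, where 1 control female was at 929 CPM.

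At an unadjusted p under 0.05 there were 595 genes (5.01% of those tested), 340 higher in females (2.87%) and 255 higher in males. A share of 0.05 would be expected at this threshold without any sex difference. Of the 340 genes 94 had all male libraries at 0, and of the 255 genes 2 had all female libraries at 0. The sexes did not overlap at 1407 genes (11.9%), 882 higher in females (7.43%) and 525 higher in males (4.42%). With 3 libraries against 3, a share of 0.1 would be expected without any sex difference. The median size of a log2 fold change was 0.37 and the median standard error 0.51.

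The genes with the next smallest p included a transcription factor, enzymes and a cilia gene. egr1, an immediate early transcription factor listed on an alternative contig of chromosome 14, was at 161, 183 and 198 CPM in females and 828, 621 and 505 CPM in males (log2 -1.86 ± 0.22 SE, adjusted p = 0.0727, edgeR). It passed with DESeq2, limma-voom, upper-quartile scaling, counts divided by 4, no filter and a filter of 10 CPM (adjusted p from 1.57e-12 to 0.0470) and stayed above the threshold in the other settings (up to 0.306). iqcb1, a gene of the ciliary transition zone, was at 8.09, 9.07 and 11 CPM in females and 42.1, 37.8 and 63.9 CPM in males (adjusted p = 0.179). tcima, a transcriptional and immune response regulator, was at 97.0, 159 and 204 CPM in females and 553, 403 and 341 CPM in males, and the keratin gene krt94 at 66.6, 47.7 and 84.9 against 191, 142 and 169 CPM (adjusted p = 0.633 and 0.609). Reads of tcima, which is also listed on an alternative contig, can be shared between copies. All of these were higher in each male library.

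Among the leading genes higher in females, zdhhc13, a palmitoyltransferase, was at 87.8, 133 and 150 CPM in females and 34.2, 35.2 and 35.8 CPM in males (log2 1.80 ± 0.26 SE, adjusted p = 0.179, edgeR). htatip2, an oxidoreductase gene, was at 111, 142 and 62.5 against 31.0, 19.7 and 11.5 CPM, and ndrg1b, a stress-responsive gene of the NDRG family, at 24.2, 11.3 and 17.5 against 2.21, 3.32 and 2.29 CPM (adjusted p = 0.609 and 0.633). Male replicates 1 and 3 were under their floors for ndrg1b. ntrk2a encodes a TrkB receptor for the growth factor Bdnf, and it was at 106, 128 and 106 CPM in females and 39.4, 33.9 and 59.6 CPM in males (adjusted p = 0.633). The transcript of bdnf itself overlapped between the sexes at 243, 185 and 247 against 293, 184 and 158 CPM. pcyt1bb, a phosphatidylcholine synthesis enzyme, was at 10.2, 14.3 and 4.59 CPM in females and at 0 in all males (adjusted p = 0.511, edgeR). The female mean was 1.52-fold the male floor averaged over the 3 libraries. Female replicates 1 and 3 lay under the floor of male replicate 3, 11.9 CPM. In the controls the order was the same, at 2.54, 3.41 and 2.92 against 0.486, 0.306 and 1.01 CPM (adjusted p = 0.0554, edgeR).

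A further 3 genes were nearly absent in 1 sex and are listed at a chromosome and on an alternative contig, which means that reads may be split between 2 copies. ruvbl2, an AAA+ ATPase gene, was at 0, 0.273 and 0 CPM in females and 73.8, 62.6 and 61.7 CPM in males, but among the control males it was at 0.243, 0.122 and 55.8 CPM, high in replicate 3 alone. The RNA polymerase subunit gene polr2l was at 0.0512, 0 and 0.436 against 14.2, 16.3 and 41.7 CPM, and the proteasome gene psma5 at 0.307, 0.364 and 0.390 against 1.55, 22.7 and 29.3 CPM. For psma5 male replicate 1 was under its floor of 4.53 CPM. In the controls polr2l and psma5 were low in both sexes. There polr2l was at 2.95, 0.891 and 0.324 CPM in females and 0.567, 0.612 and 0.277 CPM in males. psma5 was at 0, 0.315 and 0.486 against 0.304, 0.734 and 0.579 CPM. In ruvbl2 a male level is thus seen in 4 of the 6 male libraries, 3 exposed and 1 control. Apart from the genes that passed, those with the next smallest p and the hormone, germ cell and clock genes taken by smallest p, every gene named above or below was chosen after its values were seen.

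Immediate early genes were at higher levels in the exposed males than in the exposed females. The log2 fold change was negative, that is, higher in males, at 30 of 36 tested members (46.8% of all genes tested), with a median of -0.50 beside 0.04 over all genes. None passed over all genes, 12 had an unadjusted p under 0.05, all higher in males (2.15% over all genes), and 12 did not overlap, again all higher in males (33.3%, against 4.42% over all genes in that direction). The summed level of the list was 2680, 3030 and 4140 CPM in females and 12500, 7600 and 5800 CPM in males. The sums did not overlap, and male replicate 1 was the highest of the 6.

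fosab, which encodes c-Fos, was at 69.3, 181 and 246 CPM in females and 1500, 828 and 599 CPM in males (log2 -2.57 ± 0.52 SE, adjusted p = 0.712, edgeR). npas4a, induced in neurons by calcium entry, was at 143, 110 and 172 against 554, 416 and 272 CPM, and egr4 at 141, 343 and 492 against 2300, 1660 and 879 CPM (adjusted p = 0.609 and 0.854). Neither overlapped. The Jun family genes junbb, junba and jun had the same order: junbb was at 580, 726 and 1010 against 2960, 1530 and 1260 CPM, junba at 103, 107 and 214 against 640, 274 and 363 CPM, and jun at 329, 194 and 432 against 1070, 541 and 527 CPM. btg2, an anti-proliferative early gene, was at 56.6, 85.5 and 123 against 516, 240 and 224 CPM, and ier2a at 62.5, 69.4 and 102 against 412, 225 and 126 CPM. In every one of these the lowest male library exceeded the highest female library. jund, another Jun gene, overlapped at 14.4, 12.5 and 25.4 against 14.8, 18.5 and 18.7 CPM. Without any 1 library 9 to 12 members kept an unadjusted p under 0.05 in the direction of males and the list median lay between -0.67 and -0.39.

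The controls had the opposite order. There the summed level of the list was 1880, 2400 and 4290 CPM in females and 1460, 1640 and 1460 CPM in males, the median log2 fold change was 0.37, and of the members 7 passed with a higher level in females and 1 in males (adjusted p under 0.05 in 15.8% of the 12572 genes tested in the controls, 6.88% higher in females). fosab was at 48.2, 68.1 and 108 CPM in control females and 31.1, 22.8 and 14.6 CPM in control males (log2 1.67, adjusted p = 0.0253, edgeR), and jun at 348, 347 and 318 against 110, 155 and 158 CPM (1.23, 0.00878). For the list 18 of 37 members had an unadjusted p under 0.05 for the difference between the sex contrast at 40 µg/L and that in the controls (14.5% over all genes), and the smallest adjusted p was 0.142. The hour of collection and the handling of the fish are not given in the sources used here, and their part in the levels of these genes was not tested.

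Stress genes followed in part. Of 25 tested genes of the integrated stress response, the pathway that slows translation and switches on ATF4 and CHOP, 19 had a negative log2 fold change (46.8% over all genes), and 4 of them had an unadjusted p under 0.05 (2.15% over all genes in that direction). ddit3, which encodes CHOP, was at 960, 638 and 835 CPM in females and 1360, 1230 and 1180 CPM in males (log2 -0.65 ± 0.19 SE, adjusted p = 0.933, edgeR). cebpb, a stress-induced transcription factor gene, was at 48.3, 61.2 and 62.1 against 194, 107 and 90.1 CPM, and the chaperone cofactor sdf2l1 at 36.5, 40.2 and 41.2 against 51.0, 54.0 and 79.1 CPM. None of these 3 overlapped. Among 35 chaperone genes the direction was mixed, with 21 positive and 14 negative. The inducible Hsp70 genes were the ones with the larger values in males: hsp70l was at 66.8, 11.2 and 60.9 against 247, 113 and 154 CPM and hsp70.3 at 18.5, 9.95 and 23.1 against 100, 27.8 and 38.8 CPM. hsf2, a heat shock factor gene, had the reverse order at 88.6, 69.2 and 83.5 against 53.4, 48.9 and 47.0 CPM, as it did in the controls (99.5, 116 and 91.3 against 48.7, 58.4 and 69.0 CPM, adjusted p = 0.0263).

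Genes of the cytosolic ribosome had slightly higher levels in exposed males, 72 of 80 tested with a negative log2 fold change and a median of -0.31. None passed, 10 had an unadjusted p under 0.05 in the direction of males and 1 in that of females (2.15% and 2.87% over all genes), and 17 did not overlap with males higher and 2 with females higher (4.42% and 7.43% over all genes). The list summed to 132000, 97300 and 132000 CPM in females and 174000, 127000 and 154000 CPM in males, where the lowest male library lay within the range of the females. rps12 of the small subunit was at 1380, 994 and 1530 against 2280, 1680 and 2100 CPM, and rpl7 of the large subunit at 1380, 1590 and 1710 against 2390, 2100 and 2630 CPM (unadjusted p = 0.0137 and 0.00541, adjusted p = 0.933 for both, edgeR). In the controls the order was reversed, at 73800, 62100 and 64500 CPM in females and 36500, 49700 and 54000 CPM in males. There 18 members passed higher in females and 1 higher in males (6.88% and 8.88% over all genes tested in the controls). With the rare-gene median as a covariate the median at 40 µg/L was -0.16. Since CPM are shares of a library, such highly expressed genes also set the share left to the others; the 50 most abundant genes took 15.5% to 18.2% of counts in the females and 18% to 18.8% in the males.

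Most myelin genes were higher in exposed males as well. Oligodendrocytes wrap axons in myelin, and of 22 tested markers of these cells 18 had a negative log2 fold change, with a median of -0.84. None passed, 6 had an unadjusted p under 0.05 and 5 were without overlap, all higher in males (2.15% and 4.42% over all genes in that direction). sox10, a transcription factor that oligodendrocytes need, was at 20.1, 15.4 and 11.5 CPM in females and 36.4, 55.5 and 55.7 CPM in males (log2 -1.67 ± 0.33 SE, adjusted p = 0.633, edgeR). The myelin basic protein gene mbpb was at 96.3, 101 and 79.1 against 186, 220 and 153 CPM and zwi, listed here with the myelin genes, at 170, 186 and 188 against 442, 459 and 295 CPM (0.651 and 0.609). plp1b, a proteolipid gene of myelin, was at 322, 390 and 250 against 413, 732 and 413 CPM. All of these stood apart by sex at 40 µg/L. Other members overlapped, among them mag at 58.9, 80.2 and 92.3 against 83.2, 98 and 102 CPM and mpz at 67.1, 102 and 26.3 against 56.8, 113 and 75.8 CPM. gpm6ba, 1 of the 4 members with a positive log2 fold change, overlapped at 65.3, 110 and 60.1 against 70.9, 43.9 and 32.1 CPM. In the controls sox10, at 12.3, 17.5 and 18.2 against 22.4, 29.5 and 28.4 CPM, and plp1b, at 559, 518 and 412 against 613, 670 and 604 CPM, stood apart in the same direction, whereas mbpb and zwi overlapped. The list summed to 972, 1150 and 884 CPM in females and 1500, 2140 and 1380 CPM in males, and in the controls to 1720, 1330 and 1220 against 1670, 1600 and 1660 CPM, with overlap. In whole brain tissue more cells of a type and more RNA per cell cannot be told apart, here or in the groups below. Without male replicate 2, the library with the highest sum, the median was -0.57 and 3 members kept an unadjusted p under 0.05.

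Genes of the pineal organ and photoreceptors went the other way. The pineal, which sits on the brain and makes melatonin at night, can stay with a dissected brain or be lost from it. Of 27 tested markers 20 had a positive log2 fold change (53.2% of all genes tested), with a median of 1.43, or 0.71 with the 3 members at 0 in all males set to no change. asmt, the last enzyme of melatonin synthesis, was at 57.0, 35.1 and 30.0 CPM in females and 3.10, 1.02 and 0 CPM in males, each male value under its library's floor (unadjusted p = 0.00790, adjusted p = 0.933, edgeR). The retinoid-binding gene rbp3 was at 15, 35.4 and 12.6 against 3.72, 10.8 and 4.33 CPM, with male replicates 1 and 3 under their floors. exorh, the opsin of the pineal, overlapped at 164, 33.9 and 155 against 76.8, 34.6 and 19.1 CPM. The list summed to 560, 264 and 420 CPM in females and 293, 177 and 140 CPM in males, so that female replicate 2 lay within the male range.

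**Figure D2:**
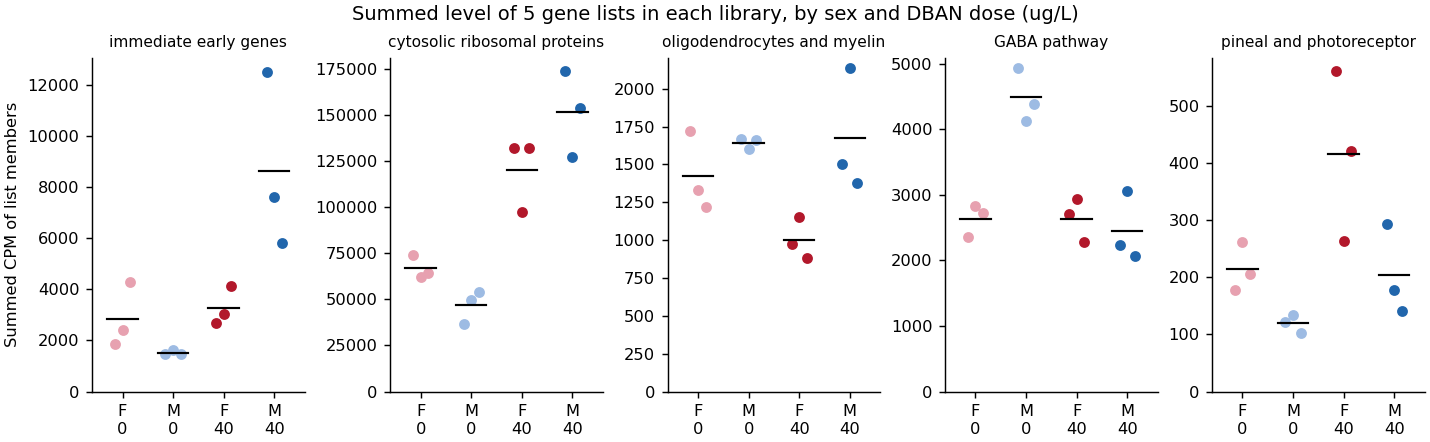
Summed CPM of 5 gene lists in each library of females (F) and males (M) at 0 and 40 µg/L DBAN; points are libraries and bars the mean of 3, on axes that start at 0. At 40 µg/L the immediate early list (2680 to 4140 CPM in females, 5800 to 12500 in males) and the myelin list do not overlap between the sexes, whereas the GABA list, which separates the sexes in controls (2360 to 2830 against 4130 to 4940 CPM), overlaps.

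Genes of inhibitory and excitatory transmission, which separated the sexes in the controls, lay close together at 40 µg/L. Marker genes of brain regions also differed between the sexes in the controls (below), and their part in this was not tested. GABA is the main inhibitory transmitter of the brain, made by glutamate decarboxylase. Of 19 tested genes of its pathway 10 were positive and 9 negative at 40 µg/L, with a median of 0.00 and none that passed, and 3 (15.8%, against 11.9% over all genes) did not overlap. In the controls 11 of the 19 passed, all higher in males (8.88% over all genes tested in the controls), and the median was -1.24. gad1b, a glutamate decarboxylase gene, was at 559, 606 and 374 CPM in females and 329, 626 and 439 CPM in males at 40 µg/L (log2 0.12 ± 0.28 SE), and at 404, 445 and 448 against 1110, 922 and 1070 CPM in the controls (adjusted p = 0.00652, edgeR). gad2 was at 141, 199 and 112 against 72.0, 152 and 78.5 CPM at 40 µg/L and at 175, 208 and 166 against 736, 482 and 434 CPM in the controls. The list sums were 2700, 2930 and 2280 CPM in exposed females and 2230, 3050 and 2060 CPM in exposed males. Of the 19 genes 8 had an unadjusted p under 0.05 for the difference of the sex contrasts, with 0.142 as the smallest adjusted p, so no single gene was shown to differ in its sex contrast between the doses. Without male replicate 2 the median at 40 µg/L was 0.25, with 15 positive and 4 negative.

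The glutamate list had the same form. Of 39 tested genes 21 were positive and 18 negative at 40 µg/L (median 0.03), and in the controls 16 passed, all higher in males (8.88% over all genes; median -0.71). grin1a, a gene of the obligatory subunit of NMDA receptors, was at 546, 849 and 333 CPM in females and 418, 756 and 337 CPM in males at 40 µg/L, and at 361, 309 and 496 against 1070, 1030 and 1050 CPM in the controls (adjusted p = 0.00845, edgeR). Its paralogue grin1b overlapped at 40 µg/L, at 1120, 944 and 1200 against 1210, 1010 and 772 CPM. In the controls grin1b had the reverse order, at 1220, 1690 and 1730 against 1210, 1160 and 1210 CPM (log2 0.35, adjusted p = 0.174, edgeR). camk2a, the kinase of the postsynaptic density, was at 18.7, 58.5 and 17.5 against 6.27, 77.4 and 36.2 CPM at 40 µg/L and at 34.4, 18.2 and 27.5 against 213, 190 and 157 CPM in the controls. In grin1a and camk2a replicate 2 was the highest library in each sex at 40 µg/L. At 40 µg/L the sexes did not overlap at 4 of the 39 (10.3%), a share near the 11.9% over all genes. These included the AMPA receptor gene gria2a, at 58.0, 37.4 and 53.3 against 22.4, 36.5 and 19.3 CPM, and grm6a, a metabotropic receptor gene, at 2.25, 1.49 and 2.36 against 13.5, 4.78 and 8.34 CPM. grm6a was also higher in males among the controls (adjusted p = 0.0108). Its values at 40 µg/L lie near the floors.

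Of 33 presynaptic genes 16 were positive and 17 negative at 40 µg/L (median 0.00), with 13 that passed in the controls, all higher in males (8.88% over all genes). syt1a, the calcium sensor of vesicle release, was at 1120, 1490 and 1010 CPM in females and 961, 810 and 702 CPM in males (unadjusted p = 0.0275, adjusted p = 0.933). Monoamine and acetylcholine genes numbered 22 positive and 26 negative of 48, with a median of -0.13, and 9 passed higher in males and 1 higher in females in the controls (8.88% and 6.88% over all genes). slc18a3b, a vesicular acetylcholine transporter gene, was at 15.7, 15 and 16.3 against 27.5, 40.5 and 25.1 CPM at 40 µg/L. th2, a tyrosine hydroxylase gene, overlapped at 5.50, 5.49 and 6.29 against 1.08, 14.0 and 11.7 CPM, whereas in the controls it was at 38.2, 29.4 and 23.9 against 9.50, 7.55 and 13.1 CPM (adjusted p = 0.0162).

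**Figure D3:**
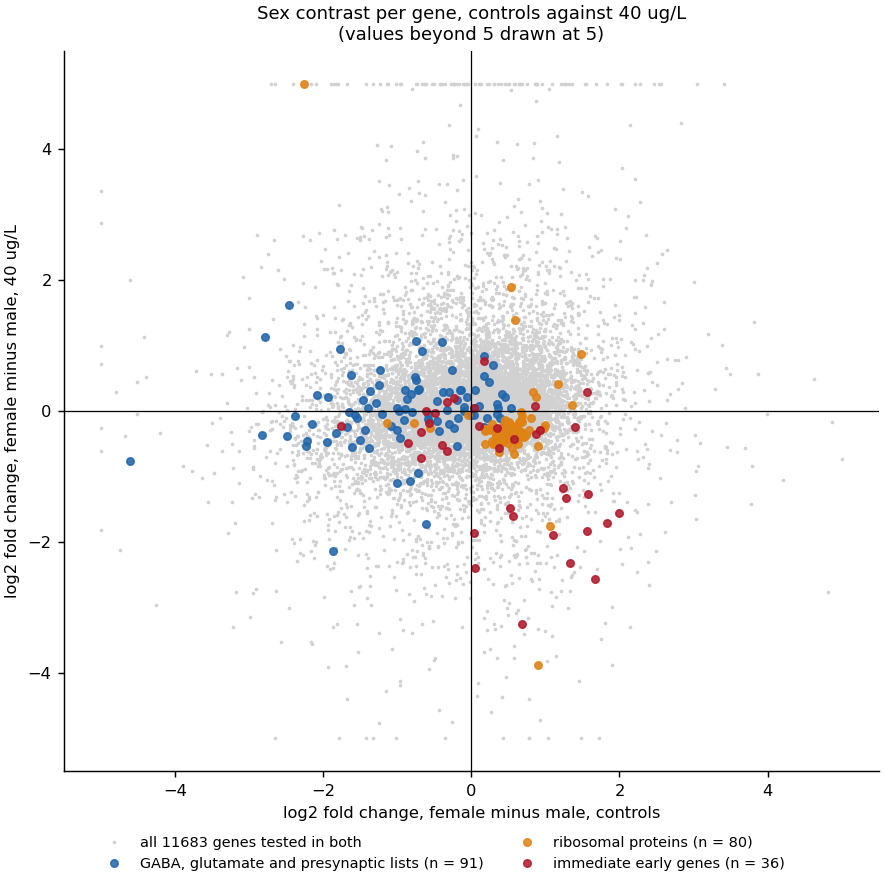
The log2 fold change between the sexes (female minus male) of each of 11683 genes tested in both, in controls (x axis) and at 40 µg/L (y axis), with values beyond 5 drawn at 5. Most genes of the transmitter lists lie left of 0 on the x axis and around 0 on the y axis, ribosomal protein genes mostly right of 0 and below 0, and immediate early genes reach furthest down among the marked lists except for 1 ribosomal gene.

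Most genes of the sex steroid pathway overlapped between the sexes at 40 µg/L. Of 26 tested genes 16 were positive and 10 negative (median 0.24), none passed and 4 did not overlap, all higher in females (7.43% over all genes in that direction), 1 of them with every library under its floor. Brain aromatase, cyp19a1b, overlapped at 988, 716 and 1210 CPM in females and 1000, 559 and 956 CPM in males (log2 0.20 ± 0.27 SE, unadjusted p = 0.489). star, which brings cholesterol into mitochondria for steroid synthesis, was at 26.6, 24.7 and 21.0 against 19.2, 0.974 and 5.78 CPM, and the oestrogen receptor gene esr2b at 18.7, 11.3 and 10.6 against 9.21, 9.65 and 7.74 CPM. Neither overlapped, and both had an unadjusted p above 0.05 (0.122 and 0.229). Male replicates 2 and 3 were under their floors for star, and male replicate 3 for esr2b. hsd17b12b, a hydroxysteroid dehydrogenase gene, was at 15.7, 24.8 and 26.2 against 8.55, 17.0 and 11.7 CPM, and pgrmc2, a membrane progesterone receptor component that is also listed on an alternative contig, at 32.1, 34 and 27.8 against 25.6, 21.3 and 15 CPM. cyp19a1a, the aromatase of the ovary, was at 0.819, 0.485 and 1.1 CPM in females and listed at 0 in all males, with every library under its floor, so no fold is given. Of the receptor genes 4 passed in the controls, all higher in males (8.88% over all genes tested in the controls). Among them was esrra, at 18.8, 9.38 and 14.7 against 33.6, 33.5 and 39.7 CPM, which overlapped at 40 µg/L at 10.1, 14.7 and 18.8 against 20.4, 22.2 and 16.3 CPM.

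The 3 peptide genes with the smallest p, avp, pmch and gnrh2, were higher in males. avp, the vasotocin precursor gene, was at 40.3, 34 and 21.2 CPM in females and 120, 87.2 and 67.2 CPM in males (log2 -1.54 ± 0.33 SE, adjusted p = 0.690, edgeR). pmch, a melanin-concentrating hormone precursor gene, was at 8.91, 11.2 and 3.93 against 21.6, 49.3 and 69.6 CPM (log2 -2.57 ± 0.55 SE, adjusted p = 0.698). The sexes overlapped at neither gene at 40 µg/L and at both in the controls, where avp was at 17.9, 35.9 and 18.1 against 11.4, 42.0 and 5.79 CPM and pmch at 111, 28.8 and 27.2 against 30.7, 27.5 and 36.4 CPM. gnrh2, a midbrain gonadotropin-releasing hormone gene, was listed at 0 in the females and at 4.3, 0.797 and 5.36 CPM in the males, each under its library's floor. trh, the thyrotropin-releasing hormone gene, was at 148, 132 and 108 against 108, 90.5 and 56.9 CPM, and in the controls at 122, 120 and 110 against 69.5, 81.6 and 78.4 CPM (adjusted p = 0.0284). Before rounding, each female library of trh lay above each male one at both doses. Over the 41 tested peptide genes 20 were positive and 21 negative, and none passed. Of 18 tested hypothalamic transcription factor genes 8 were positive and 10 negative, with a median of -0.15.

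Pituitary hormone genes were hardly present, with 4 of 17 listed genes tested. pomca was at 9.39, 3.03 and 1.03 CPM in females and 8.05, 14.7 and 5.99 CPM in males, pomcb at 1.05, 0.485 and 0 against 5.50, 0 and 0 CPM, and cga, the shared alpha subunit of the gonadotropins, at 0.742, 1.64 and 0.643 CPM against 0 in all males. The values of pomcb and cga lie around or under the floors, and pomca overlapped between the sexes. Of 26 tested gonad and germ cell genes 16 were positive, and none passed. sycp3, of the synaptonemal complex, was at 2.64, 7.76 and 0.367 CPM against 0 in all males. Female replicate 3 was under its floor, and the female mean of 3.59 CPM lay under the mean male floor of 6.38 CPM, so no fold is given. In the controls it did not overlap, at 10.1, 6.29 and 4.37 against 0.364, 0.265 and 2.87 CPM (unadjusted p = 0.0245, adjusted p = 0.0967, edgeR).

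Clock genes were close in females and males. Of 46 tested 27 were positive and 19 negative, with a median of 0.07, and none passed. usp2a, a light-responsive output gene, was at 129, 133 and 121 CPM in females and 84.4, 83.7 and 79.5 CPM in males (log2 0.61 ± 0.18 SE, adjusted p = 0.933, edgeR), and at 202, 216 and 236 against 154, 158 and 126 CPM in the controls (adjusted p = 0.0439). It was higher in every female library at both doses. fbxl3a, which marks cryptochromes for degradation and is also listed on an alternative contig, was at 56.7, 62.6 and 58.6 against 42.0, 51.4 and 38.2 CPM. hlfb, an output transcription factor gene, was at 0.947, 1.3 and 1.79 CPM against 0 in all males, under or near the floors. nr1d1, the repressor Rev-erb alpha, overlapped at 118, 86.2 and 95.9 against 91.5, 62.5 and 137 CPM, whereas it passed in the controls at 557, 611 and 531 against 242, 241 and 348 CPM (adjusted p = 0.0133).

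Of 35 radial glia and astrocyte genes 15 were positive and 20 negative, and none passed. glulc, a glutamine synthetase gene, was at 20.2, 17.2 and 19.8 CPM in females and 0.658, 6.42 and 4.58 CPM in males, and the controls had the same order at 13.7, 20.2 and 13.0 against 2.81, 3.10 and 2.14 CPM (adjusted p = 0.00845). Male replicates 1 and 3 at 40 µg/L were under their floors for this gene. vim, of the glial cytoskeleton, was at 177, 159 and 160 against 279, 188 and 267 CPM. In the controls vim overlapped and leaned the other way, at 131, 135 and 104 against 93.4, 106 and 92 CPM (log2 0.32). Microglial genes were mixed, 12 positive and 16 negative of 28: cybb, of the phagocyte oxidase, was at 101, 77.2 and 68.6 against 23.8, 55.9 and 13.2 CPM, and irf8, a microglial transcription factor gene, at 9.19, 7.52 and 8.26 against 10.5, 19.6 and 30.4 CPM. Among interferon and antigen presentation genes 23 of 35 were negative, with socs3a the member that passed.

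Markers of other tissues were checked because a dissected brain can carry them. Red blood cell genes were negative at 13 of 18, and their sums of 13400, 2440 and 5900 CPM in females and 6660, 12100 and 7330 CPM in males overlapped. Skeletal muscle summed to 1190 to 1340 CPM in females and 1220 to 1290 CPM in males, skin and connective tissue to 762 to 2450 and 1170 to 1640 CPM, and vessels to 645 to 851 and 747 to 1050 CPM. None of these list sums separated the sexes. By member, 8 of 29 tested vessel genes were positive and 21 negative (46.8% over all genes), with a median of -0.28. Telencephalic, subpallial, midbrain and hindbrain marker sums overlapped too, at 1830 to 2220 and 1700 to 2070 CPM for the pallium, 2200 to 3390 and 1980 to 3090 CPM for the subpallium, 1370 to 1800 and 1530 to 2440 CPM for the diencephalon and midbrain, and 2640 to 4100 and 2700 to 4710 CPM for the cerebellum and hindbrain. A sum can rest on 1 member: zic1 alone was at 2160, 1430 and 2670 CPM in females and 2350, 1040 and 2510 CPM in males, a large part of the subpallial sum. By member, 18 of 26 tested subpallial genes were positive (53.2% over all genes), with a median of 0.21. Of 34 diencephalon and midbrain genes 25 were negative (46.8% over all genes), with a median of -0.23. At 40 µg/L none passed, and the part of dissection was not tested. In the controls such markers passed in both directions. Of the pallial list tbr1b was at 3.94, 1.47 and 3.61 CPM in females and 21.4, 35.1 and 20.1 CPM in males. neurod2 was at 224, 247 and 205 against 86.2, 84.7 and 123 CPM (adjusted p = 0.00945 and 0.0104, edgeR). Of the midbrain list tcf7l2 was at 74.4, 72.9 and 67.8 against 197, 196 and 234 CPM. en2b was at 54.5, 50.5 and 52.3 against 17.9, 21 and 19.4 CPM (0.0065 and 0.00786). Genes on chromosome 4 did not stand apart, with 44 of 415 without overlap (10.6%, against 11.9% over all genes) and a median log2 fold change of 0.04.

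**Figure D4:**
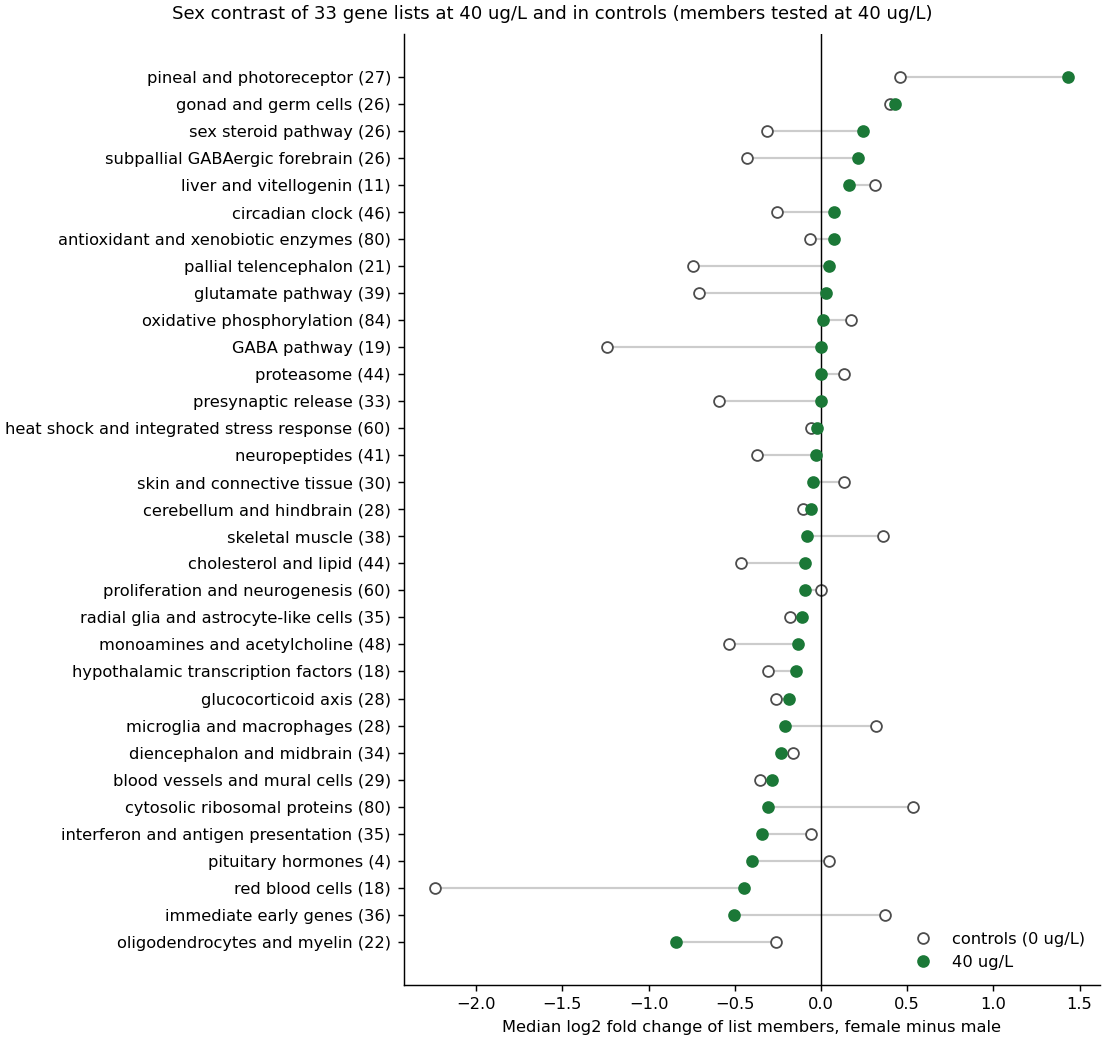
Median log2 fold change between the sexes (female minus male) of the tested members of 33 gene lists, at 40 µg/L (filled) and in controls (open); numbers in brackets are the members tested at 40 µg/L. Myelin (-0.84) and immediate early genes (-0.50) have the lowest medians at 40 µg/L and pineal genes the highest (1.43); the GABA, glutamate and presynaptic lists lie at 0.00 to 0.03 at 40 µg/L and at -1.24 to -0.59 in controls.

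The control comparison, on libraries that the exposed one does not share, asks how much of the sex difference at 0 µg/L was seen at 40 µg/L. In the controls 1982 of 12572 genes passed (15.8%), 865 higher in females and 1117 higher in males, and 41.1% of genes did not overlap. The median size of a log2 fold change was 0.56 in the controls and 0.37 at 40 µg/L, and the biological coefficient of variation was 0.440 and 0.843. The spread between libraries of 1 sex was thus wider at 40 µg/L. Complexity differed by dose as well. The rare-gene median was 8 to 11 in the control libraries and 8 to 132 at 40 µg/L. Genes at 0 numbered 1435 to 2558 in the controls and 2095 to 5172 at 40 µg/L. The part of complexity in the differences between the doses was not tested. The number of genes that passed in the controls fell to 278 to 1342 when 1 library was left out, the lowest without male replicate 2.

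Of the genes that passed in the controls 1962 were tested at 40 µg/L. Their sign was the same at 1271 (64.8%; 54.7% over all 11683 genes tested in both), none passed at 40 µg/L, and 101 had an unadjusted p under 0.05. The 862 genes higher in control females had a median log2 fold change of 0.96 in the controls and 0.17 at 40 µg/L. For the 1100 genes higher in control males the medians were -1.24 and -0.13. Both sets were selected by the control test, which favours large values in the controls, so the medians at the doses are not on equal terms. The share with the same sign was 48.7% without male replicate 2 and 59.7% to 74.0% without any 1 of the other libraries at 40 µg/L. Across genes the log2 fold changes of the 2 comparisons had a Pearson correlation of 0.0852 and a Spearman correlation of 0.132, where genes are not independent replicates.

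Among the 11683 genes tested in both, some had sexes that did not overlap at either dose. Females were higher at both doses in 270 and males at both in 121. In 57 females were higher in controls and males at 40 µg/L, and in 94 the reverse. At each dose alone, females were higher without overlap at 19.8% of genes tested in the controls and 7.43% at 40 µg/L. Males were higher without overlap at 21.4% and 4.42%. slc35b3, a solute carrier gene, was at 37.7, 43.2 and 25.8 CPM in females and 8.13, 6.55 and 11.6 CPM in males at 40 µg/L (log2 2.0 ± 0.38 SE, adjusted p = 0.609), and at 41.1, 67.1 and 27 against 11.3, 7.43 and 9.81 CPM in the controls (log2 2.21, adjusted p = 0.0117, edgeR). mapk11, a p38 MAP kinase gene, was at 221, 230 and 194 against 129, 90 and 104 CPM at 40 µg/L and 227, 363 and 280 against 165, 125 and 137 CPM in the controls (log2 0.99 and 1.0, adjusted p = 0.633 and 0.0200). The sexes were thus in the same order with like sizes at both doses in these genes. zbtb16a, a transcriptional repressor gene, was higher in males at both, at 10.8, 16.7 and 11.6 against 23.7, 23.1 and 21.5 CPM at 40 µg/L and 11.7, 5.35 and 8.06 against 40.5, 43.1 and 46.7 CPM in the controls (adjusted p = 0.976 and 0.00839).

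The difference between the 2 sex contrasts was tested in 1 fit of the 12 libraries. Of 13149 genes none passed an adjusted p of 0.05 (0%; smallest 0.0679, edgeR), 1909 had an unadjusted p under 0.05 (14.5%), and DESeq2 called 456, of which 117 had a group at 0. For znf143a the difference was -3.26 ± 0.63 on the log2 scale (adjusted p = 0.142) and for socs3a -2.41 ± 0.62 (0.179). The count was 369 without male replicate 2 at 40 µg/L. Of 81 ribosomal protein genes 59 had an unadjusted p under 0.05 for this difference, of 39 glutamate genes 14 and of 35 presynaptic genes 14.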

How the data were processed

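Brain poly(A) RNA was measured as gene counts, which the authors deposited unscaled for 14971 gene symbols. The submitters' processing notes name DESeq2, FastQC, Picard, STAR and StringTie, with neither versions nor roles; a genome build was not given in the sources used here. Low values piled up at multiples of 4, and no 2 libraries agreed within sampling noise.

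The 6 libraries at 40 µg/L, and separately the 6 controls, were filtered with filterByExpr, scaled with TMM factors and tested with edgeR 4.0.16 (R 4.3.3; quasi-likelihood F test, robust dispersion, Benjamini-Hochberg adjustment over all genes). The difference of the contrasts came from 1 fit of 12 libraries. Standard errors are approximate: the log2 fold change over the square root of F. CPM use TMM factors of the 12 libraries. Floors, 3 times a library's rare-gene median, cover counting error only. Alternatives were other scalings, filters and dispersions, DESeq2 1.42.0, limma-voom (limma 3.58.1), the replicate block, a complexity covariate, counts divided by 4 and each library left out. The filter of 10 CPM was chosen after seeing the data. The script was tested on simulated data.

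The comparison, the 33 gene lists and the tests were chosen with earlier results of these data known. The rule names up to 10 called genes per direction, up to 4 called members per list, the 20 genes with the smallest p, and the 3 members with the smallest p of the steroid, pituitary, peptide, germ cell and clock lists; a few genes are not reported here. No sequences are printed, and the 3 females at 200 µg/L entered only the rare-gene definition.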

Additional observations from a re-analysis of the deposited data

Results flagged for a closer look

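Among the genes named by the rule and the tested members of the gene lists reported here, 26 had sexes that did not overlap at either dose and stood in opposite orders. The test of the difference itself, in the fit of 12 libraries, did not pass for any of them over all genes (adjusted p = 0.113 to 0.641, edgeR). At 19 of them females were higher among the controls and males at 40 µg/L, and at 7 the reverse. Over all 11683 genes tested in both, 57 had the former order and 94 the reverse. The lists were chosen with earlier results of these data known, and 8 of the 26 genes encode ribosomal proteins. The balance among the 26 thus follows the choice of lists and is not read as a result. The difference of the contrasts (sex contrast at 40 µg/L minus that in controls, log2) was -4.27 for fosab, -3.56 for ier2a, -2.61 for junbb, -2.42 for jun, -2.18 for junba, -2.14 for tcima and -1.76 for ddit3. It was -2.13 for otx2a and -0.95 for gata2a, transcription factor genes of the diencephalon and midbrain list, -2.10 for tpx2, a spindle gene of dividing cells, and -1.36 for the macrophage gene mpeg1.1, which lay near the floors. For 8 ribosomal protein genes it was -1.24 (rps12), -1.11 (rps3), -1.02 (rps7), -0.89 (rps27.1), -0.88 (rplp0), -0.82 (rpsa), -0.81 (rpl36) and -0.79 (rpl23a).

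At 7 genes males were higher among the controls and females at 40 µg/L. The difference was 2.13 for ntrk2a, which was at 59.4, 71.6 and 58.7 CPM in control females and 106, 138 and 80.9 CPM in control males. It was 1.88 for eomesa, a transcription factor gene of the pallium, 1.84 for napba, a gene of presynaptic membrane fusion, and 1.57 for gria2a. rorca, with 4.93, and ahr1b, with 4.54, lay under the floors in all males at 40 µg/L. hlfb was fitted at 10.66, a value that depends on the prior count and is no bound, since all males at 40 µg/L were at 0; in the controls hlfb was at 2.27, 0.367 and 1.13 CPM in females and 6.70, 5.32 and 3.95 CPM in males. The higher rare-gene medians of the male libraries at 40 µg/L and the lower depth of the female controls coincide with sex, and their part in these differences was not tested.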

How the results depend on the processing

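The count at 40 µg/L was 2. It was 70 with DESeq2, 4 with counts divided by 4, and 0 with non-robust dispersion, a filter of 1 CPM in 3 libraries, the complexity covariate or the replicate block, and 0 to 1 without any 1 library; fits with other scalings, no filter, a filter of 10 CPM or limma-voom gave 2 or 3. znf143a and socs3a lost their calls wherever the count was 0 or 1 and in the joined fit, where the 3 genes that passed were higher in females. Whether numbers shared by the sexes pair the samples is not known. Deviations of same-numbered libraries correlated at 0.027, 0.114 and 0.0506 at 40 µg/L, each library best with its own number, and at -0.0741 to 0.0217 in controls. Correlations this small cannot decide it, and the main fits left the samples unpaired. In controls the 1982 calls became 3223 with DESeq2, 973 with the replicate block, 579 in the joined fit and 278 to 1342 without 1 library. The difference of the contrasts gave 456 calls with DESeq2, 0 to 369 without 1 library, and 0 with the replicate block. pomcb reversed from -1.83 to 1.0 with the replicate block and 1.02 with limma-voom, and lay at -2.9 to 7.32 without 1 library (positive without male replicate 1), at levels near the floor. The cause of these shifts was not tested. No other gene named by the rule reversed. Depth and complexity limit what can be seen in genes under about 10 CPM in the males.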
